A study of Mus musculus with 9 samples.

Results

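Gm4665 is a long noncoding RNA gene of mouse chromosome 9 that lies within the span of the protein-coding gene Osbpl10. Described here are 9 genes, of 49603 RefSeq genes used: Gm4665, its host Osbpl10, and the nearby genes Stt3b, Gadl1, Tgfbr2, Gpd1l, Cmtm6, Cmtm7 and Cmtm8. They were chosen by position, and every enriched interval that touched a gene or the 10 kb on either side of it was taken. This gave 12 of 38711 intervals retrieved with Gm4665 probes and 3 of 9448 retrieved with control probes.

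Testis germ cells came from wild-type mice of the ICR strain at postnatal day 35. Cross-linked, sheared chromatin was hybridised to biotinylated probes for Gm4665, or to probes for LacZ (a bacterial gene absent from mice) as the control. DNA from the Gm4665 group, the LacZ group and the input group was sequenced, with 3 samples in each of the 3 groups. Sample titles call the first group LncRNA-20, and the protocol names Gm4665 probes for all 9 samples. The LacZ probes are named in the sample titles and in the header of their peak list, but not in the protocol. The labels name no separate animals, so the spread between replicates may be technical, and intervals on DNA give no expression with which to check the labelled cell type.

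Long noncoding RNAs can stay at the place where they are made or travel to other sites, and a probe that binds the RNA brings down the chromatin the RNA touches. The gene that makes the RNA is usually the first place looked at, since nascent transcripts are held there by the polymerase. Its neighbours are of interest because some noncoding RNAs act on genes next to their own. Such probes can pair with the gene's own DNA as well as with the transcript, and how much of the enrichment at the gene came from each was not tested.

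The start site of Gm4665 was the only one of 8 member start sites in the promoter table that an interval covered, so its sequence is shown beside that of Stt3b, the gene next to Osbpl10, whose start site had none. The Gm4665 window runs from 250 bases before to 50 bases after the start (chr9:115186052-115186351, minus strand), and that of Stt3b is cut to the 250 bases before the start (chr9:115310469-115310718, minus strand). Both are RefSeq sequences of GRCm38.p6, printed 5′ to 3′ on the strand of the gene. Capitals mark CG dinucleotides and matches on either strand to 4 short motifs: TATAAA (the TATA box), CCAAT (the CCAAT box), GGGCGG (the GC box) and TGACGT (part of the cAMP response element), of which GGGCGG and TGACGT themselves contain a CG.
Gm4665: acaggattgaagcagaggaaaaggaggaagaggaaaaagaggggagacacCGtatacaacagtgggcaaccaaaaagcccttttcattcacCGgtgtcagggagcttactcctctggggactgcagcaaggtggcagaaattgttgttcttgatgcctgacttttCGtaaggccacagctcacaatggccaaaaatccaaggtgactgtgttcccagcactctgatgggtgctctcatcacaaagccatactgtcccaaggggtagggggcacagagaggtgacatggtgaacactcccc
Stt3b: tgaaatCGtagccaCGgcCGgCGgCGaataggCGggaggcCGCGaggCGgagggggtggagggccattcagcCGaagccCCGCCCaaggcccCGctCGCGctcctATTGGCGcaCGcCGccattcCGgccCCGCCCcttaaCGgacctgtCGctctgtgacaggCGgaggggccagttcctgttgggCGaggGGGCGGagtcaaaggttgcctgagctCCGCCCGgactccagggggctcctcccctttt

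The capitals are few in the first sequence and many in the second. The Gm4665 window held 3 CG dinucleotides and none of the 4 motifs, with 51.3% G or C. The full Stt3b window held 32 CG dinucleotides, 6 matches to GGGCGG and 1 to CCAAT, with 71% G or C. The Gadl1 window, also without an interval, was nearer to that of Gm4665. It held 4 CG dinucleotides and none of the 4 motifs, with 50% G or C. Over all 32851 promoter windows of the table the median was 7 CG dinucleotides and 52.7% G or C. GGGCGG was found in 35.7% of them, CCAAT in 37.4%, TATAAA in 13.6% and TGACGT in 7.51%. Among the 8 member windows, GGGCGG was in 5, CCAAT in 3, and TATAAA and TGACGT in none. These are matches of letters, not sites of binding. A Gm4665 interval overlapped 1.80% of all promoter windows and a LacZ interval 0.728%; among the members, the window of Gm4665 was the 1 of 8 with a Gm4665 interval, and none had a LacZ interval. Osbpl10 is not in the promoter table.

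Gm4665 itself was covered from end to end by a single interval of the Gm4665 list, and by none of the LacZ list. Gm4665 (gene 100043812) spans chromosome 9 from 115178427 to 115186101 in mm10 and is read from the minus strand. The interval, chr9:115165775-115191874, had folds over input of 128.5, 101.1 and 119.7 in replicates 1, 2 and 3 (mean 116 ± 14.0, SD, n = 3). Each replicate has its own scale, so folds were also divided by the median fold of that replicate's list, called relative fold here. On that scale the values drew together, at 11.3, 11.9 and 11.6 times the list median (mean 11.6 ± 0.298, SD, n = 3). Both spreads hold only with the highest listed fold kept for each replicate, since replicates 2 and 3 also had lower folds listed. The summit of the interval, its point of highest coverage, lay at 115185838, only 263 bp downstream of the start site of Gm4665. A single summit is listed per interval, with no replicate named. With the highest fold kept for each replicate, 0 intervals on chromosome 9 had a higher mean, and the next had 75.5 ± 9.95 (SD, n = 3); this rank depends on how repeated rows are joined, as described next. The nearest LacZ interval was 72678 bp away, and LacZ signal too low to be listed is not known.

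The 26.1 kb width and the fold of this interval need to be read with how the deposited list was built. The list held the interval in 16 rows. All 16 gave the same replicate 1 fold, 128.5. Replicate 2 had 4 different folds, of 3.74, 5.07, 51.5 and 101.1. Replicate 3 also had 4, of 3.32, 3.68, 5.76 and 119.7. The 16 rows were every combination of the values of replicates 2 and 3. The values above take the highest fold of each replicate; with the first row alone the folds were 128.5, 3.74 and 3.32 and the mean was 45.2, below 40 other intervals on chromosome 9 and below 1 other within 1 Mb of Gm4665. Across the whole Gm4665 list 381 of 38711 intervals were repeated, and replicate 1 varied within 0 of them, replicate 2 within 207 and replicate 3 within 285. How the replicates were joined is not stated, so whether the 26.1 kb width holds for replicates 2 and 3 is not known. Only 2 intervals of the list had more than 10 rows, and the other 11 member intervals had 1 row each.

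**Figure D1:**
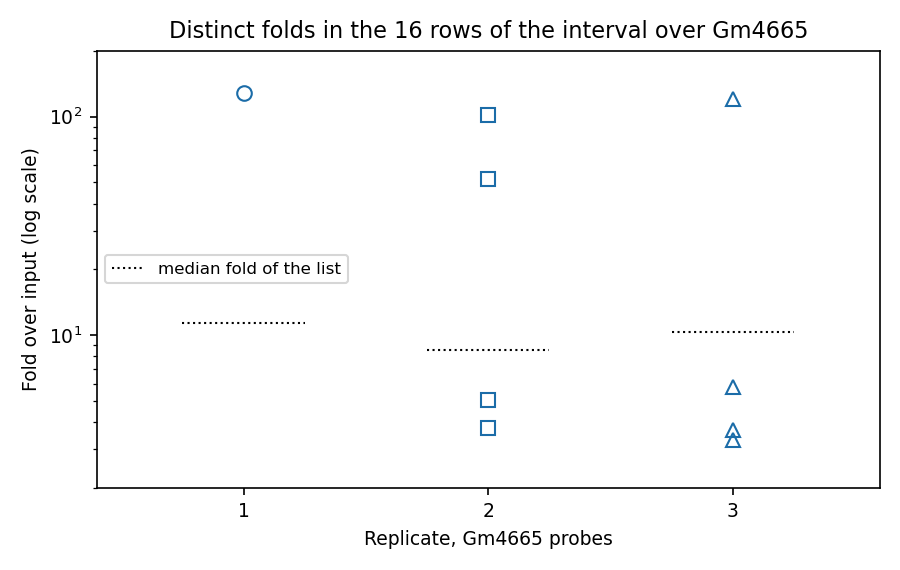
Distinct folds over input (log scale) in the 16 deposited rows of the interval over Gm4665, by replicate, with the median fold of each replicate's list as a dotted line. Replicate 1 has a single value of 128.5, replicate 2 has values from 3.74 to 101.1, and replicate 3 from 3.32 to 119.7, of which 2 in replicate 2 and 1 in replicate 3 lie above the list median.

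Osbpl10, whose product belongs to the oxysterol-binding proteins that move lipids between membranes, held 3 further Gm4665 intervals of ordinary strength. Osbpl10 (gene 74486) spans 114978485 to 115233273. The interval chr9:115095314-115096050 had folds of 17.9, 10.9 and 12.3 (13.7 ± 3.69, SD, n = 3) and a summit at 46.0% of the span, counted from the end with the lower coordinate. It was highest in replicate 1, and above the list median in all 3 replicates. The interval chr9:115155333-115155951 had 10.5, 11.1 and 10.8 (10.8 ± 0.282, SD, n = 3) at 69.5% of the span, the closest agreement in raw fold among the member intervals. The interval chr9:115212362-115212629, the narrowest of the 12 at 268 bp, had 5.62, 7.19 and 6.57 (6.46 ± 0.790, SD, n = 3) at 91.8% of the span. It was below the list median in all 3 replicates. None of these summits lay within 20 kb of an end of Osbpl10; the closest was 20.8 kb inside the upper end.

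The interval over Gm4665 covered 10.2% of Osbpl10 and had the highest mean fold of the 4 Gm4665 intervals in that gene. It was not confined to Gm4665, reaching 12652 bp past its 3′ end and 5773 bp beyond its start site. By relative fold it was followed among the members by the interval in Stt3b. Its fold was 10.9, 6.46 and 7.58 times that of the Stt3b interval in replicates 1, 2 and 3 (mean ratio 8.31 ± 2.30, SD, n = 3). With the first row of each repeated interval the mean ratio was 3.78, carried by replicate 1 alone. In that row the folds of replicates 2 and 3, 3.74 and 3.32, were below the Stt3b folds of 15.6 and 15.8. The LacZ list also held an interval in Osbpl10, chr9:115092267-115093096, with folds of 19.9, 6.36 and 12.6 (13.0 ± 6.77, SD, n = 3). It lay 2217 bp from the Gm4665 interval at 46.0% of the span without overlapping it.

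**Figure D2:**
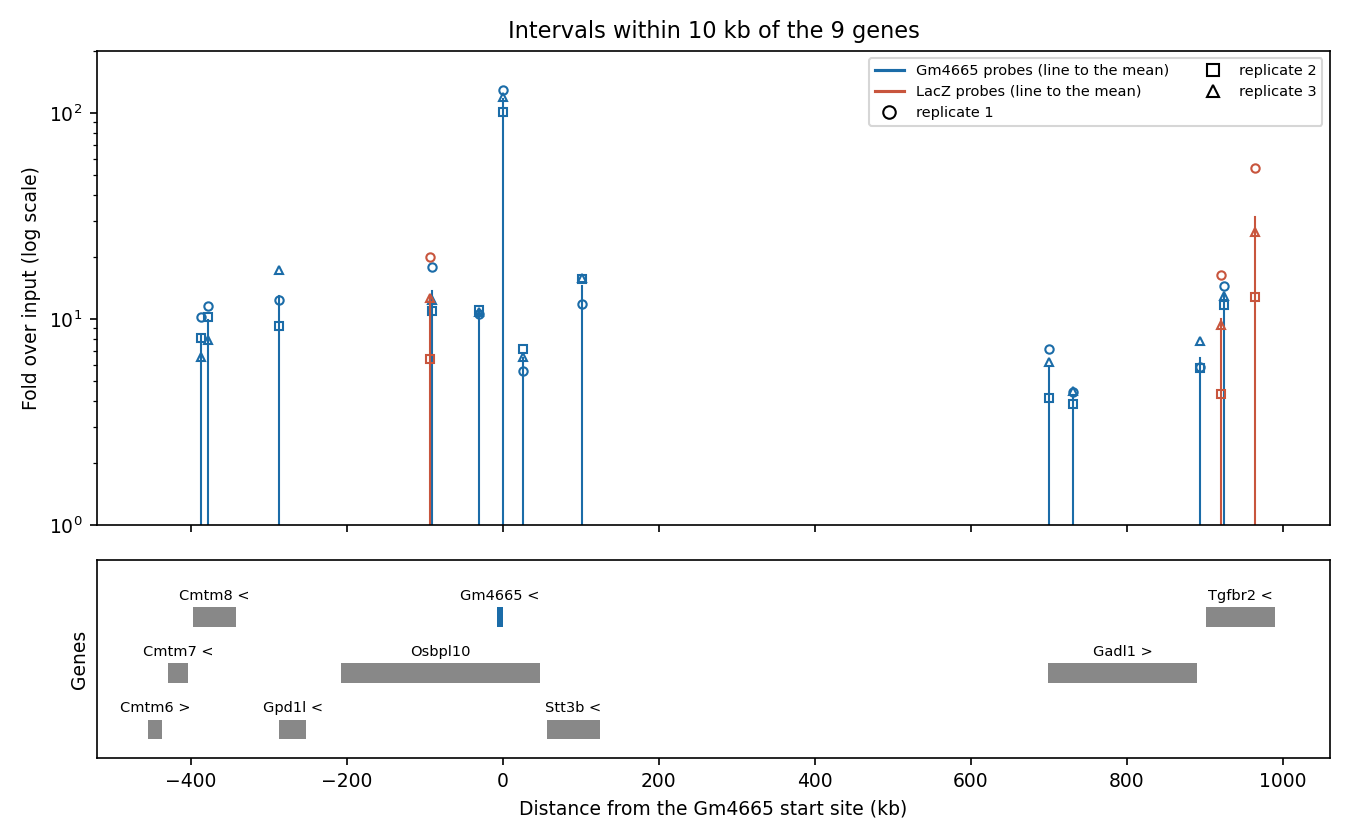
Folds over input (log scale) of the 12 Gm4665 and 3 LacZ intervals within 10 kb of the 9 genes, by distance of the summit from the Gm4665 start site in kb, with symbols for replicates, lines up to the mean, and gene spans below (arrows give the strand where the promoter table has it). The interval over Gm4665 stands at a mean of 116 by its highest listed folds, while the other 11 Gm4665 intervals have means from 4.27 to 14.4.

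Stt3b had 1 Gm4665 interval and no LacZ interval. It encodes a catalytic subunit of the oligosaccharyltransferase, the enzyme that attaches N-glycans to proteins in the endoplasmic reticulum. Stt3b (gene 68292) spans 115242470 to 115310468 on the minus strand, and the interval chr9:115287572-115288256 had its summit 22.5 kb downstream of the start site. Folds were 11.8, 15.6 and 15.8 (14.4 ± 2.26, SD, n = 3). Replicate 1 was the lowest here although its list had the highest median, so the relative folds spread from 1.04 to 1.84. The mean fold was higher than that of 70.5% of the list.

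Gadl1 had 3 Gm4665 intervals, all of them weak, and no LacZ interval. It encodes a relative of the glutamate decarboxylases that makes beta-alanine from aspartate. Gadl1 (gene 73748) spans 115884671 to 116076176 on the plus strand, and the start site in the promoter table, 115909455, lies inside that span. The interval chr9:115885567-115886019, 1157 bp inside the lower end of the gene at its summit, had folds of 7.16, 4.13 and 6.17 (5.82 ± 1.55, SD, n = 3). The interval chr9:115916925-115917377 had 4.43, 3.88 and 4.49 (4.27 ± 0.332, SD, n = 3), with its summit 7.56 kb downstream of that start site. It was the weakest of the 12 and exceeded only 0.310% of the list by mean fold.

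The third Gadl1 interval lay between genes and was shared with Tgfbr2. This interval, chr9:116079035-116079430, was 2858 bp past the upper end of Gadl1 and 8264 bp from the nearer end of Tgfbr2. Its folds were 5.86, 5.78 and 7.81 (6.48 ± 1.15, SD, n = 3). At all 3 intervals of Gadl1 the folds of each of the 3 replicates were below the median of its list.

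Tgfbr2 was the member with the most LacZ signal. It encodes the type II receptor of TGF-beta, a membrane kinase that binds the ligand and activates the type I receptor. Tgfbr2 (gene 21813) spans 116087695 to 116175363 on the minus strand. Inside it, the Gm4665 interval chr9:116110232-116111323 had folds of 14.5, 11.7 and 12.9 (13.0 ± 1.41, SD, n = 3), with its summit 64.6 kb downstream of the start site. It was above the list median in all 3 replicates and, at 1092 bp, the widest member interval after the one over Gm4665.

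Both LacZ intervals of Tgfbr2 lay inside the gene. The first, chr9:116106219-116106991, had 16.4, 4.32 and 9.34 (10.01 ± 6.06, SD, n = 3) and lay 3240 bp from the Gm4665 interval. The second, chr9:116149396-116150926, overlapped the lncRNA gene Gm31292 as well and had 54.2, 12.8 and 26.5 (31.2 ± 21.1, SD, n = 3). It exceeded 93.6% of the LacZ list by mean fold and was the strongest LacZ interval within 1 Mb of Gm4665. In each of the 3 LacZ intervals replicate 1 was the highest and replicate 2 the lowest, as the list medians of 23.0, 8.18 and 10.9 also were. Their mean fold was 18.0 ± 11.3 (SD, n = 3), and 12.0 without replicate 1. Relative to the list medians, the second Tgfbr2 interval was at 2.36, 1.56 and 2.43, the Osbpl10 interval at 0.864, 0.778 and 1.16, and the first Tgfbr2 interval at 0.712, 0.528 and 0.855, in this order in all 3 replicates.

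Gpd1l had 1 Gm4665 interval, which crossed the 3′ end of the gene. It encodes a protein like the enzyme glycerol-3-phosphate dehydrogenase. Gpd1l (gene 333433) spans 114899339 to 114933987 on the minus strand. The interval chr9:114899289-114899984 reached 50 bp past the 3′ end and had its summit 324 bp inside it. Folds were 12.3, 9.28 and 17.2 (13.0 ± 4.02, SD, n = 3), highest in replicate 3 and above the list median in all 3 replicates. With Gm4665 and the first Gadl1 interval, it was 1 of 3 member intervals whose summit lay within 2 kb of an end of a member. How many of all intervals lie so near a gene end was not counted, so nothing is read from this number.

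The genes Cmtm6, Cmtm7 and Cmtm8 encode membrane proteins with a MARVEL domain, and Cmtm6 is known for keeping the immune checkpoint ligand PD-L1 at the cell surface. Neither list held an interval within 10 kb of Cmtm6 (gene 67213, 114731157 to 114749359) or Cmtm7 (gene 102545, 114756836 to 114781993). Both lie in a stretch of 324.6 kb without a Gm4665 interval, from 114473924 to 114798475. On chromosome 9, 13 of 2052 stretches between neighbouring intervals were at least that long, and the median stretch was 38.3 kb. Cmtm8 (gene 70031, 114789343 to 114844152, minus strand) held 2 Gm4665 intervals in its downstream part, with summits 45.5 kb and 36.2 kb from the start site. The first, chr9:114798476-114798807, had folds of 10.2, 8.05 and 6.56 (8.28 ± 1.85, SD, n = 3). The second, chr9:114807789-114808213, had 11.6, 10.2 and 7.94 (9.91 ± 1.85, SD, n = 3). Both were lowest in replicate 3, and the second was the higher in all 3 replicates.

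Of the 9 members, 7 had a Gm4665 interval within 10 kb, beside 43.2% of all genes. Of the 8 protein-coding members 6 had one, beside 53.1% of protein-coding genes. A LacZ interval was listed for 2 of 9, beside 16.3% of all genes, and for 2 of the 8 protein-coding members, beside 22.4%. Longer genes hold more intervals, so the density is given too. The joined windows of the members, 850.3 kb in all, held 14.1 Gm4665 intervals per Mb, beside 16.9 on chromosome 9 and 15.7 on the autosomes. For LacZ it was 3.53 per Mb, beside 4.34 and 3.84. Apart from the interval over Gm4665, 11 intervals had a median mean fold of 9.91, beside 9.99 for the list, and a median width of 453 bp, beside 582 bp. Of these 11, 5 lay above the median of the list by mean fold. In number and strength the neighbours' intervals were close to those of the list as a whole. The interval over Gm4665 stood apart from them in fold in replicate 1. In replicates 2 and 3 it did so only by its higher listed folds. Its lowest there, 3.74 and 3.32, were below the folds of every other Gm4665 member interval in those replicates. As listed it was also much wider, but whether that width holds for replicates 2 and 3 is not known.

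**Figure D3:**
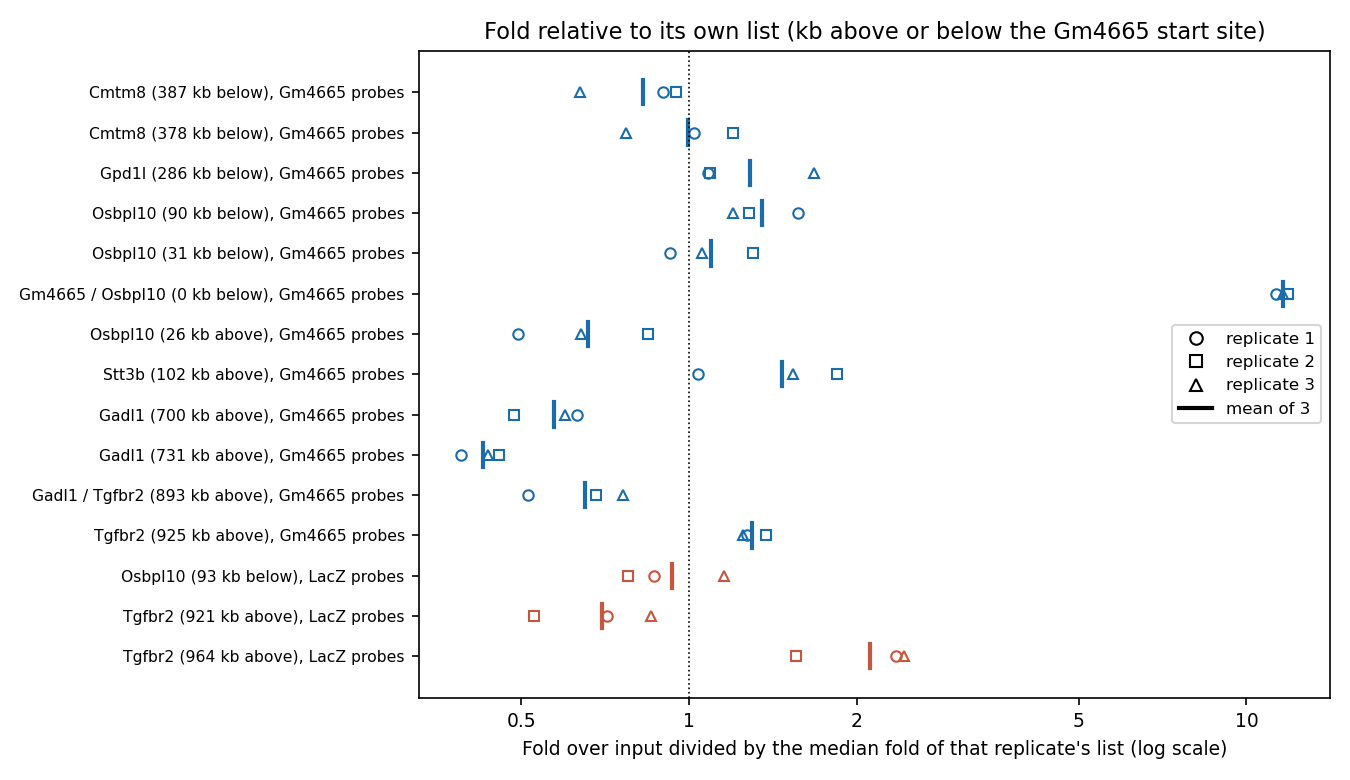
Fold over input divided by the median fold of that replicate's list (log scale) for the 12 Gm4665 and 3 LacZ member intervals, each named by its gene and the distance of its summit from the Gm4665 start site, with symbols for replicates and a bar for the mean of 3. The dotted line is the list median. By its highest listed folds the interval over Gm4665 lies at 11.6, and the other 11 Gm4665 intervals lie between 0.428 and 1.47.

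The order of the 11 weaker Gm4665 intervals was mostly not settled by 3 replicates. Ranked by relative fold, they ran from 1.47 ± 0.405 in Stt3b through 1.35 ± 0.195 in Osbpl10, 1.30 ± 0.0652 in Tgfbr2 and 1.28 ± 0.341 at Gpd1l to 0.428 ± 0.0346 in Gadl1 (SD, n = 3 each). Of the neighbours in that order, only the Cmtm8 pair and the lowest Gadl1 pair kept their order in all 3 replicates. Stt3b, for example, was 0.661, 1.44 and 1.28 times the Osbpl10 interval that followed it.

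No rise in the density of Gm4665 intervals was seen within 100 kb of the gene, though only 3 intervals lay there. Leaving out its own interval, the Gm4665 list held 3 intervals within 100 kb of the gene (15 per Mb), 15 from 100 to 500 kb (18.8 per Mb) and 19 from 500 to 1000 kb (19 per Mb). From 1000 to 2000 kb there were 38 (19 per Mb), from 2000 to 5000 kb 113 (18.8 per Mb), and farther along the chromosome 1864 (16.7 per Mb). The median of the mean folds was 10.8 within 100 kb, 12.9, 9.96, 9.35 and 10.8 in the next 4 bins, and 10.04 beyond. The nearest 3 bins hold fewer than 20 intervals each, so their densities and medians are coarse. The length searched within 100 kb still included the parts of the gene's own interval that lie beyond the gene, which lowers that density. LacZ intervals numbered 1, 1, 4, 6, 38 and 477 in the same bins. Within 1 Mb of Gm4665 the strongest Gm4665 intervals after its own were chr9:114359437-114360749, which overlaps the gene 4930525D18Rik (57.5 ± 8.75), and chr9:114203152-114204373, which overlaps no gene of the table (43.2 ± 5.45, SD, n = 3 each). They lay 817.7 kb and 974.1 kb from Gm4665, and no member was within 10 kb of them.

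**Figure D4:**
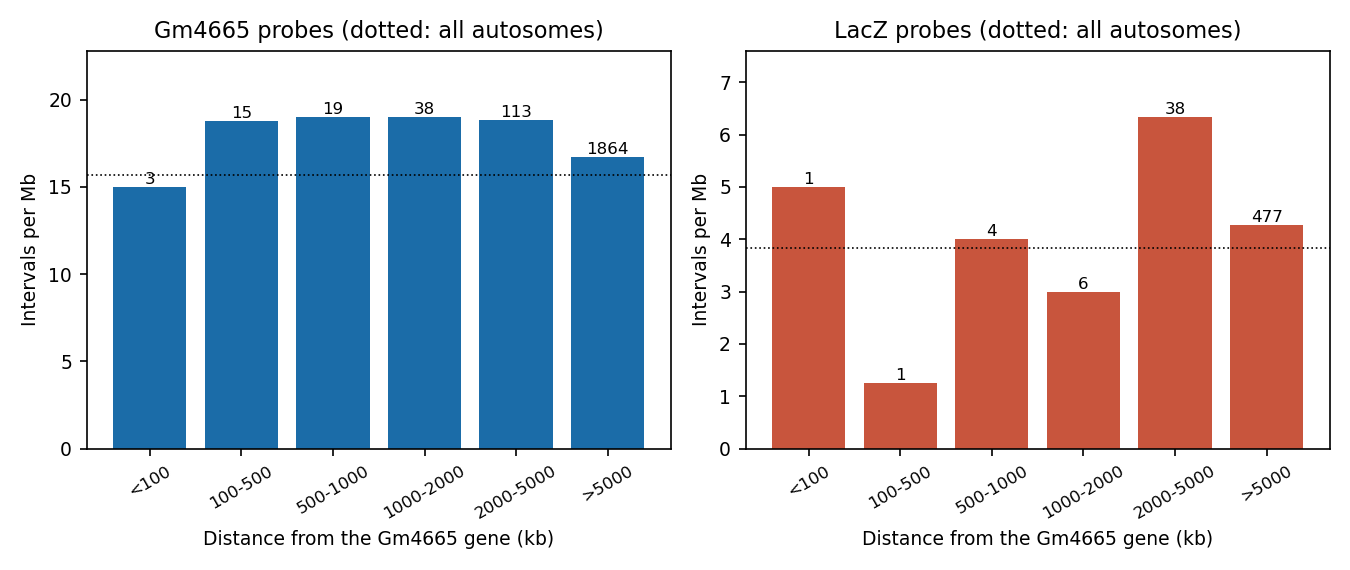
Intervals per Mb of chromosome 9 by distance from the Gm4665 gene in kb, without the interval over Gm4665, for Gm4665 probes (left) and LacZ probes (right), with the number of intervals above each bar and the density on all autosomes as a dotted line. Gm4665 intervals number 15 per Mb within 100 kb and 18.8 to 19 per Mb from 100 to 5000 kb; the LacZ bins within 2000 kb hold 1 to 6 intervals each.

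Just outside the members, the nearest Gm4665 interval below Cmtm6 was chr9:114473566-114473923 in Glb1, the beta-galactosidase gene, with 6.35 ± 0.721, and the nearest above Tgfbr2 was chr9:116227489-116227798, with 6.19 ± 2.41 (SD, n = 3 each). The nearest LacZ intervals were chr9:114365178-114365682 (11.9 ± 9.04) and chr9:116385032-116386006 (14.2 ± 7.33, SD, n = 3 each). Between Osbpl10 and Tgfbr2, outside the members, LacZ intervals at chr9:115541957-115542942 and chr9:115689031-115689787 had 23.6 ± 15.2 and 17.7 ± 8.65 (SD, n = 3 each). No Gm4665 interval of the members overlapped a LacZ interval. In the whole Gm4665 list only 344 of 38711 intervals overlapped a LacZ interval, so the lack of overlap is not particular to the members. Within 5 kb of one lay 2 of 12, beside 4.94% of the whole Gm4665 list, and 2 of 3 LacZ member intervals lay within 5 kb of a Gm4665 interval, beside 19.1% of the LacZ list. With 12 and 3 intervals these shares are coarse.

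Genes of the members' families, the members included, were counted beside the 53.1% of protein-coding genes with a Gm4665 interval and the 22.4% with a LacZ interval. All 12 genes of the oxysterol-binding protein family had a Gm4665 interval within 10 kb, and 6 of 12 a LacZ interval. After Osbpl10 the highest mean fold in that family was at Osbpl6, with 39.3 ± 6.64 (SD, n = 3). Of 12 oligosaccharyltransferase genes 6 had a Gm4665 interval and 1 a LacZ interval, at Ost4, which also had the highest Gm4665 fold (19.9 ± 2.53), followed by Rpn1 (19.5 ± 5.46, SD, n = 3 each). Of 9 genes of the Cmtm family 3 had one and 0 a LacZ interval. A single interval with 39.3 ± 4.53 (SD, n = 3) served the adjacent Cmtm3 and Cmtm4.

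Of 12 genes for TGF-beta ligands, receptors and Smads, the proteins that carry the signal to the nucleus, 8 had a Gm4665 interval and 5 a LacZ interval. Smad3 led with 38.1 ± 5.34, before the ligand gene Tgfb2 with 35.9 ± 4.19 (SD, n = 3 each), and Tgfbr2 itself came seventh of the 8 by its best interval. Of the 3 glycerol-3-phosphate dehydrogenase genes Gpd2 (25.2 ± 5.35) and Gpd1l had one, and Gpd2 a LacZ interval. Of the 4 genes of the glutamate decarboxylase family Gad1 (43.0 ± 4.42), Csad (6.89 ± 1.60, SD, n = 3 each) and Gadl1 had one, with no LacZ interval. In all, 34 of the 52 family genes, members included, had a Gm4665 interval and 13 a LacZ interval. Gene length was not taken into account, and nothing particular to these families is read from the counts.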

How the data were processed

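Per the file names, both peak lists were made with MACS2, and coordinates are on mm10 according to the submitters' processing notes. MACS2's version and settings, the aligner and the way replicates were joined were not given in the sources used here. Per the file headers, the deposited values are a linear fold enrichment (ratio) over input for each of 3 replicates, with 1 pileup signal per interval that names no replicate and was used for no result. Read totals were not used here, so depth is unknown and no counting interval is given.

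Where rows repeated an interval, each replicate's highest fold was kept. Intervals on chromosomes 1 to 19, X and Y were set against RefSeq gene spans (GRCm38.p6), leaving out 340 of 49943 genes that start below 3 Mb on chromosomes other than Y. An overlap is 1 bp. Strand and start sites came from a promoter table holding 8 of the 9 members; exons were not separated. The lists were normalized separately, so no test was made across them. All 9 members with each of their intervals, the nearest and strongest intervals around them, and the 2 leading genes of each of 6 families were named by rule. The members and lists were chosen with earlier results of these data known. Python 3.11.15 with pandas 2.3.3 and matplotlib 3.10.9 was used; overlap code was tested on simulated intervals. Alternatives tried were flank width, midpoints, fold minimums, the joining rule and leaving out each replicate.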

Additional observations from a re-analysis of the deposited data

How the results depend on the processing

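No paired analysis was possible because no test was made between the probe groups, whose lists were normalized separately. Ratios between intervals were taken within each replicate of 1 list and are given without a test. With 2 kb flanks, no flanks, midpoints or a minimum fold of 4 in every replicate, the counts of member intervals (12 and 3 in the main setting) were 11 to 12 for Gm4665 probes and 3 for LacZ probes, and the members with an interval stayed 7 and 2. With a minimum fold of 10 in every replicate they were 5 and 1 intervals at 4 and 1 members, since fewer intervals were searched. With that minimum the density at members was 1.08 times that on autosomes for Gm4665 and 0.973 times for LacZ intervals. The share of all genes with an interval was counted only in the main setting, so the other member counts have no such share beside them. Keeping the first of repeated rows gave a mean fold of 45.2 in place of 116 over Gm4665 and a ratio of 3.78 in place of 8.31 to the Stt3b interval, because that row holds the lowest values of replicates 2 and 3. In replicates 2 and 3 the interval over Gm4665 was then below the Stt3b interval. Its place on chromosome 9 by mean fold went from 1 to 41. Leaving out each replicate in turn was tried only with the highest listed folds kept. The mean fold over Gm4665 was then 110.4 to 124, and the ratio to the Stt3b interval 7.02 to 9.23. For the other Gm4665 member intervals the mean fold was 9.38 to 10.02, and for LacZ member intervals 12.0 to 23.2. The density at members over that on autosomes was 0.901 to 1.08 for Gm4665 and 0.919 to 1.02 for LacZ intervals.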
